A study of Mus musculus with 8 samples.

Results

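Common sites at gene ends are stretches of open chromatin that all 4 hair follicle populations of the study share and that lie at the start or the finish of a protein-coding gene. They were found by merging overlapping ATAC-seq peaks of the 4 populations into sites, leaving out the Y and mitochondrial chromosomes. A site was kept if it held a peak of every population, was under 3000 bp long and had its midpoint within 1 kb of either end of a protein-coding gene on mm10. Of 114956 sites, 10264 met this rule (8.93%), which is 32.7% of the 31420 sites open in all 4 populations and 72.6% of the 14136 sites at a gene end. The sites were chosen by peak calls in the 4 lists and by distance to a gene end, so neither is a finding, and the peak scores below come from the same calls and are given as a description with no test.

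ATAC-seq marks open chromatin through a transposase that inserts sequencing adapters into accessible DNA. Bulge stem cells (GFP+, CD34+) and hair germ cells (GFP+, CD34-) were sorted in telogen, the resting stage of the follicle, at postnatal day 55 from Lgr5-eGFP-ires-CreER mice, which carry a fluorescent reporter at Lgr5. Basal TACs (transient amplifying cells, the fast-dividing offspring of follicle stem cells) came from the same strain at postnatal day 30 and were GFP-, CD34-, high in integrin β1 and P-cadherin+. Suprabasal TACs came from K14-H2BGFP mice at postnatal day 30, in which keratin 14 regulatory DNA drives a fluorescent histone, and were low in GFP, CD34- and integrin α6-. All cells came from back skin, with both sexes mixed, and each population had 2 samples, which the authors pooled into 1 peak list. With 1 pooled list per population there is no spread between replicates, so no p-value is given, and intervals are 95% intervals for counting error only. The pooled libraries held 24065469 fragments in bulge cells, 11053351 in hair germ cells, 30824845 in basal TACs and 47852893 in suprabasal TACs. Stage and age coincide, and the suprabasal TACs also differ in strain, so these cannot be told apart.

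Gene starts are usually open because promoters are kept free of nucleosomes by bound transcription factors and by the transcription machinery. Many mammalian promoters lie in CpG islands, stretches rich in G and C that keep the CpG dinucleotides elsewhere lost through methylation, and such promoters serve mostly genes used in many cell types. Promoters with a TATA box and few CpG dinucleotides serve mostly genes of a few cell types, among them the keratins of the hair.

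The promoters printed here were chosen after the values were seen, to show 4 patterns described below. Each runs from 250 bases before to 50 bases after a gene start on GRCm38.p6 (the assembly of mm10), is taken from RefSeq and reads 5′ to 3′ along the gene. Capitals mark the motif matches named with each. Gsk3b (kinase that marks β-catenin for destruction; chr16:38088751-38089050, plus strand; CCAAT boxes), Rpl37 (large ribosomal subunit protein; chr15:5116363-5116662, plus strand; ETS motifs and a CCAAT box) and Kbtbd3 (gene of the kelch repeat family; chr9:4309493-4309792, plus strand; GC boxes and a CRE core) were among the strongest sites in every population.
Gsk3b: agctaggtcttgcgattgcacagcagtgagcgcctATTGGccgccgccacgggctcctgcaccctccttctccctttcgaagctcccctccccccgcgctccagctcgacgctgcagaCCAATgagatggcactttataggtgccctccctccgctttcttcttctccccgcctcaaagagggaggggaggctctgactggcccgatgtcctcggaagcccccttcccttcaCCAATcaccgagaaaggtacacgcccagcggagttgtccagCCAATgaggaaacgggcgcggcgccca
Rpl37: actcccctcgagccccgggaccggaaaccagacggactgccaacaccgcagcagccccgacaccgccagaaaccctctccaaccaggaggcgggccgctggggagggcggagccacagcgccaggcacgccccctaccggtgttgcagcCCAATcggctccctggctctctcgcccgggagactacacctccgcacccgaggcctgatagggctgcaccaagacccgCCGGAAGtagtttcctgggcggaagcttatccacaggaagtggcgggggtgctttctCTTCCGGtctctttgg
Kbtbd3: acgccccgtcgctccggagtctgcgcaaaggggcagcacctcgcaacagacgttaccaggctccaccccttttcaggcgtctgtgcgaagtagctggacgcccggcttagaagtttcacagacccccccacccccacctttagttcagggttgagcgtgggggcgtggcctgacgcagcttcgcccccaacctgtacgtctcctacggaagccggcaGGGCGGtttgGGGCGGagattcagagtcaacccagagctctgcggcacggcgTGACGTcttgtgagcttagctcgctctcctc
Msx1 (hair matrix homeobox factor; chr5:37824536-37824835, minus strand; CCAAT and GC boxes), Bmp4 (BMP ligand; chr14:46390620-46390919, minus strand; an ETS motif and a GC box) and Cldn4 (tight junction protein; chr5:134946885-134947184, minus strand; AP-1 motifs and GC boxes) ranked higher in suprabasal TACs than in the bulge.
Msx1: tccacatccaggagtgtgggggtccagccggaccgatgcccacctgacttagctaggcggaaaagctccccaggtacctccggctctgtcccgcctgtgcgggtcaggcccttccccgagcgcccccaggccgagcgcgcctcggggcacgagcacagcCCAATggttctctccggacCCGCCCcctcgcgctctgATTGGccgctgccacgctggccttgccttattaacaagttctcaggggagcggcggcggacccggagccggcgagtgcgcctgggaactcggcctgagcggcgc
Bmp4: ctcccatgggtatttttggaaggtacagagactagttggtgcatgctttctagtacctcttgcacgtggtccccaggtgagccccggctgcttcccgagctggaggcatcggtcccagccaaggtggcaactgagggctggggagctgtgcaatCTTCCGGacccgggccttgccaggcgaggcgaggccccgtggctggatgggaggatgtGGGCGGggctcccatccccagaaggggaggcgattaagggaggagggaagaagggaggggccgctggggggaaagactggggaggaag
Cldn4: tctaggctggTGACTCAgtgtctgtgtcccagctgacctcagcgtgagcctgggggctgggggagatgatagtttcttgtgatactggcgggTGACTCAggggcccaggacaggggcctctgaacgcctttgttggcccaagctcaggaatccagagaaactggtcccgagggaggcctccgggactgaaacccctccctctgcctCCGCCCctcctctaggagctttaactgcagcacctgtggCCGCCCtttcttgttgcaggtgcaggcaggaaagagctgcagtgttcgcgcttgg
Foxc1 (forkhead factor of bulge stem cells; chr13:31806396-31806695, plus strand; CCAAT and GC boxes) ranked lower in suprabasal TACs than in the bulge.
Foxc1: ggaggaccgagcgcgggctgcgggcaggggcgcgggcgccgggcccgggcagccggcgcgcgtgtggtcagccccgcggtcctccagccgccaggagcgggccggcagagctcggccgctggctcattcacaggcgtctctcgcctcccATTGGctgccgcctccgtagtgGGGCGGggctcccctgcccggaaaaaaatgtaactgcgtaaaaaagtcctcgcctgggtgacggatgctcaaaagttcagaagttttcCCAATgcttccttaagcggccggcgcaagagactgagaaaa
Krt25 (inner root sheath keratin; chr11:99322902-99323201, minus strand; TATA and CCAAT boxes) had a common site, and its neighbour Krt27 (inner root sheath keratin; chr11:99351069-99351368, minus strand; TATA box) had no peak of any population at its ends.
Krt25: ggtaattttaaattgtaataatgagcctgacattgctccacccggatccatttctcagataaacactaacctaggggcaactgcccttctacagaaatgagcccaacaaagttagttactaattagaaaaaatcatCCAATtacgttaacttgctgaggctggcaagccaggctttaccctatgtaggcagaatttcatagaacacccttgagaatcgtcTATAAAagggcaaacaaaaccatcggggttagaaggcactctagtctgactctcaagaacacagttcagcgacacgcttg
Krt27: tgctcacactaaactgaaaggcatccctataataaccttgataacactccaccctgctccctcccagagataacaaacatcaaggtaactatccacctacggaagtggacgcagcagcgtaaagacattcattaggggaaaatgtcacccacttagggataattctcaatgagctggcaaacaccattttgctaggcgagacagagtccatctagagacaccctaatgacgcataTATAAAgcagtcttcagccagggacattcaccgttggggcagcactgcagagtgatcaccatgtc
The TATA box of Krt25 begins 30 bases before the gene start, and in this window the Gsk3b promoter holds 4 CCAAT boxes.

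Common sites lay at gene starts far more often than at gene finishes. Strand was known for 17273 of the 21627 protein-coding genes, and of these 8744 had a common site at the start (50.6%) and 809 at the finish (4.68%). At 8055 common sites the strand of every gene end was known, and 7697 of them (95.6%, 95.1 to 96.0, Wilson) held a gene start. The other 358 (4.44%) held finishes only, and just 10 of these were within 1 kb of any start in the promoter table. One peak from each list made up the site at 9399 of 10264 (91.6%), and the median distance of the midpoint to the nearest gene end was 241.5 bp.

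Divergent promoters, in which genes on opposite strands start close together, were the minority. Starts on both strands fell in 832 common sites (8.11% of 10264, a lower limit since all strands were known at 8055), and in 535 of these the genes ran head to head, with a median of 100 bp between the starts. Some sites covered several gene ends at once. Those with most ends included the paired histone genes H2ac12/H2bc12, H2ac13/H2bc13 and H2ac15/H2bc15 on chromosome 13 and H2ac20/H2ac21/H2bc21 on chromosome 3, which encode core histones. At H2ac12/H2bc12 the coverage, the number of fragments over the summit, was 384 in bulge cells, 154 in hair germ cells, 361 in basal TACs and 391 in suprabasal TACs.

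The strongest summit sat close to the gene start in every population. Over 7108 pairs of a site and a start, leaving out sites with starts on both strands, the median summit was 30 bp downstream of the start in bulge cells, 30 bp in hair germ cells, 14 bp in basal TACs and 35 bp in suprabasal TACs. Within 100 bp of the start lay 47.3% of summits in bulge cells, 46.0% in hair germ cells, 51.8% in basal TACs and 45.9% in suprabasal TACs. Between 200 and 250 bp downstream lay 3.21% of bulge, 3.62% of hair germ, 3.28% of basal TAC and 4.88% of suprabasal TAC summits, so the suprabasal list had a small second rise there. The fragment size in the file headers, 224 bp in bulge cells, 233 bp in hair germ cells, 256 bp in basal TACs and 187 bp in suprabasal TACs, also differs between the lists. It was longest in basal TACs, with the smallest median, and shortest in suprabasal TACs, with the largest, but the bulge and hair germ shares did not follow its order, and its part in these positions was not tested. Across the 4 populations the summits of a common gene-end site spanned a median of 100 bp, against 113 bp at 20627 common sites of the same length limit away from gene ends.

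**Figure D1:**
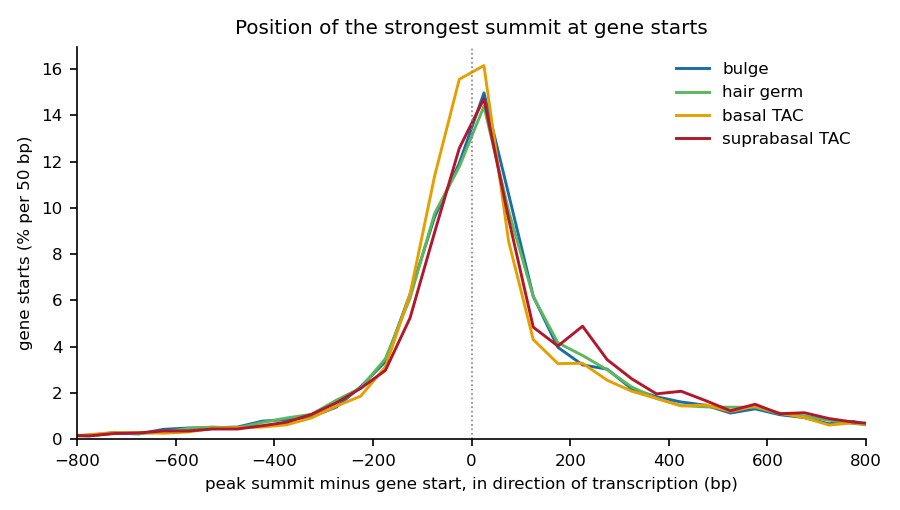
Share of gene starts (%, per 50 bp) by the position of the strongest summit relative to the start (bp, positive in the direction of transcription) for each population. All 4 curves peak just downstream of the start, basal TACs are highest at the start, and suprabasal TACs have a small second rise between 200 and 250 bp.

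Common gene-end sites were among the most covered peaks of each list. Their median percentile of coverage among all peaks of a list was 81.0 in bulge cells, 80.8 in hair germ cells, 83.4 in basal TACs and 84.5 in suprabasal TACs. Common sites away from gene ends had medians of 58.9, 57.7, 67.4 and 62.8 in the same order of populations. Of the 1000 most covered peaks, 57.4% in bulge cells, 66.9% in hair germ cells, 68.2% in basal TACs and 60.5% in suprabasal TACs were in common gene-end sites. Among all peaks of a list that share was 16.8%, 18.9%, 13.8% and 14.9% in the same order.

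The kind of gene end went with the coverage. Sites with starts on both strands had median percentiles of 90.0, 90.4, 91.9 and 92.3 from the bulge to suprabasal TACs. Starts on 1 strand only had 81.1, 81.2, 83.6 and 84.5, and sites at finishes only had 54.6, 56.7, 65.2 and 65.4. The finish-only medians were near those of common sites away from gene ends, and these sites were also shorter, with a median merged length of 1077.5 bp against 1451 bp at starts on 1 strand.

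The site shared by Kbtbd3 and Aasdhppt, an enzyme that activates carrier proteins, had the highest mean percentile of all (chr9:4308761-4310320). Its coverage was 881 in bulge cells (824 to 941, exact Poisson), 404 in hair germ cells (366 to 445), 570 in basal TACs (524 to 619) and 521 in suprabasal TACs (477 to 568). At Gsk3b it was 743 in bulge cells, 314 in hair germ cells, 496 in basal TACs and 526 in suprabasal TACs. The other most covered sites were at Khsrp/Slc25a41, Cnga4/Fam160a2, B3galnt2, the stress granule gene G3bp1, the oxysterol-binding protein gene Osbp, Ifrd1 and Fam72a/Srgap2, and the lowest rank of any of these among common gene-end sites was 99.7, at Ifrd1 in hair germ cells. The 10th was the finish of Lars2, the mitochondrial leucyl-tRNA synthetase, where a site of only 388 bp had a coverage of 598 in bulge cells, 336 in hair germ cells, 1067 in basal TACs and 1095 in suprabasal TACs. It also had the highest fold enrichment (coverage over local background) of all common gene-end sites in each list. These values were 26.1, 26.8, 22.8 and 33.1 from the bulge to suprabasal TACs, and their cause was not tested. At the other extreme, the start of the alcohol dehydrogenase gene Adh1 had 14 fragments in bulge cells, 8 in hair germ cells, 21 in basal TACs and 21 in suprabasal TACs, and that of the T-box factor Tbx21 had 11, 9, 15 and 32.

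Sequence was not used to choose the sites, and promoters with a common site were richer in CpG dinucleotides than those with no site or a site of 1 to 3 lists. Of 17273 promoters, those with a common site at the start had a median CpG ratio (observed over expected from the base composition) of 0.79. It was 0.45 with a site of 1 to 3 lists at the start and 0.21 with no site. Sites were placed by the outermost end of the gene. For 1740 of the 17273 genes the promoter used starts more than 1 kb from that end. The median G and C content was 61.7% with a common site, 56.7% with a site of 1 to 3 lists and 48.0% with no site. A CpG ratio of at least 0.6, a usual mark of CpG islands, was found in 77.3% of promoters with a common site (76.4 to 78.2, Wilson), against 15.4% of those with no site (14.6 to 16.2) and 49.0% of all promoters. In the printed promoters the CpG ratio was 0.83 at Kbtbd3, 0.73 at Gsk3b and 0.68 at Rpl37, against 0.37 at Krt27. Other printed promoters with a common site had lower ratios, 0.45 at Krt25, 0.42 at Bmp4 and 0.32 at Cldn4, the last below Krt27.

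Short motifs of general promoter factors followed the same division. Both strands of each 300-base promoter were searched for 16 motifs, and a match is a description of letters, not a bound site. The GC box (GGGCGG, read by SP factors) occurred in 5961 of 8744 promoters with a common site (68.2%), 1403 of 7021 of those with no site and 46.9% of all promoters. The ETS motif (CCGGAAG) occurred in 19.5%, 4.29% and 12.1% of the same 3 sets, the NRF1 motif (GCATGCGC) in 5.74%, 1.24% and 3.6%, and the CRE core (TGACGT) in 12.6%, 4.47% and 8.8%. The TATA box (TATAAA) went the other way, at 6.53%, 22.5% and 13.4%, as did the GATA motif (AGATAA) at 5.62%, 15.5% and 10.0% and the AP-1 motif (TGANTCA) at 4.51%, 10.3% and 7.1%. The SOX (ACAATGG) and RUNX (TGTGGTT) motifs were also less frequent with a common site, at 1.67% and 3.19% against 4.56% and 7.08% with no site. Base composition differs between the sets. The GC box, ETS, TATA and CCAAT shares and the CpG ratio were therefore compared within 4 bands of similar G and C content. The NRF1, CRE core, GATA, AP-1, SOX and RUNX shares were not. The GC box was more frequent with a common site in each band, but less so at high G and C content. It was at 44.0% against 17.1% with no site between 50% and 55%, and 86.1% against 77.5% between 65% and 70%. The ETS share was higher with a common site in all 4 bands, for example 23.5% against 13.7% with no site between 60% and 65%. The CpG ratio still differed within bands, with medians of 0.63 against 0.21 between 50% and 55% and 0.78 against 0.60 between 60% and 65%. The ETS motif holds a CpG, and its share at equal CpG ratio was not tested. The TATA share was 11.3% in both sets between 50% and 55%. From the next band upwards it was 6.81%, 4.49% and 2.73% with a common site, against 9.27%, 6.49% and 2.54% with no site, so its direction was not the same in all bands.

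The CCAAT box (CCAAT, read by NF-Y) occurred in 39.8% of promoters with a common site and 40.4% of those with none. Within each of the 4 bands it was more frequent with a common site, at 46.7% against 39.4% with no site in the lowest band and 37.8% against 30.8% in the highest. It also varied with coverage among the common sites. When promoters were ranked by the mean rank of their site and cut into 3 groups of equal size, the CCAAT box occurred in 31.4% of the weakest, 35.8% of the middle and 52.2% of the strongest group (50.4 to 54.0, Wilson). The strongest group had more in each of the 4 bands, for example 57.0% against 28.3% in the weakest group between 60% and 65%. The CRE core occurred in 9.1%, 12.7% and 16.0% from the weakest to the strongest group, the ZNF143 motif (ACTACAA) in 2.5%, 4.6% and 6.6%, and the ETS motif in 14.3%, 22.1% and 22.1%. The strongest and weakest groups were cut by coverage, so these shares describe how sequence goes with coverage in these lists.

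**Figure D2:**
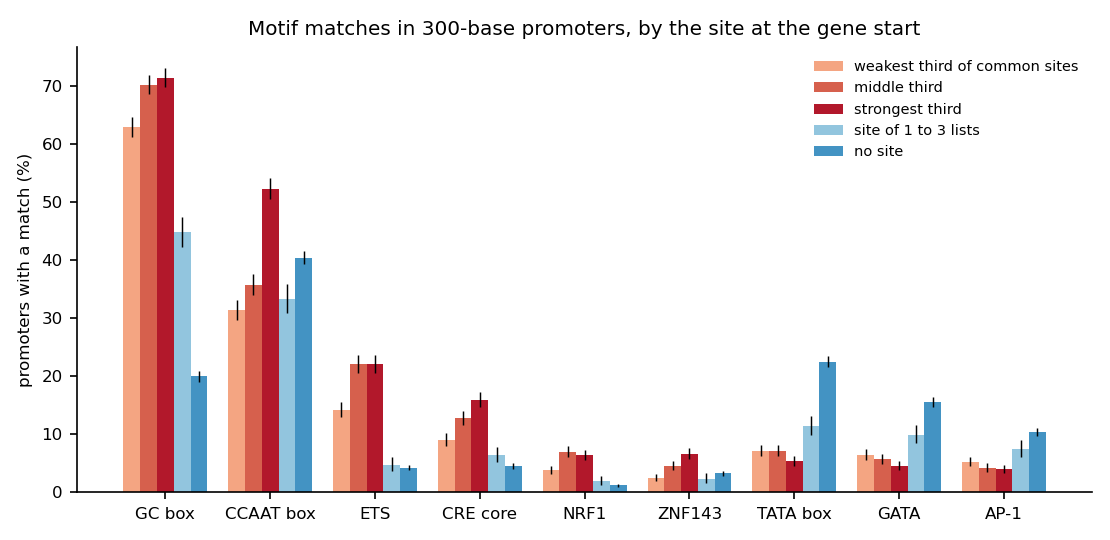
Share of 300-base promoters (%) with a match to each motif, with 95% Wilson intervals, for common sites at the start in 3 groups by coverage (weakest, middle, strongest), for starts with a site of 1 to 3 lists and for starts with no site. GC box, ETS, CRE core and NRF1 bars are higher for common sites than for starts with no site, TATA, GATA and AP-1 bars are lower, and the CCAAT box climbs with coverage to 52.2%.

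A common site at an end was found at 11205 of 21627 protein-coding genes (51.8%, 51.1 to 52.5, Wilson). Another 2141 genes (9.90%) had a site of only 1 to 3 lists, 204 (0.943%) had only a common site of 3000 bp or more, and 8077 (37.3%) had no site at either end. Of the 2141 partial genes, 1124 (52.5%) had peaks of TAC lists only and 256 of the bulge or hair germ lists only. The TAC lists were also longer, with 75637 peaks in basal and 72137 in suprabasal TACs, against 62320 in bulge and 56536 in hair germ cells. The part of list length in these counts was not tested. Having no member does not show a closed promoter: of 8268 such genes with known strand, 965 (11.7%) had a common site within 1 kb of a listed start that is not the gene's outermost end. Sites were also placed by their midpoints, so a long site centred more than 1 kb away can still cover an end.

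Genes of basic cell machinery nearly always had a common site. It was found at 42 of 45 ribosomal protein genes (93.3%), 29 of 31 proteasome genes (93.5%), 26 of 28 genes of the respiratory chain (92.9%), 21 of 22 mitosis genes (95.5%), 23 of 26 S phase genes (88.5%) and 22 of 26 splicing genes (84.6%), against 51.8% of all protein-coding genes. The ribosomal protein genes without one were Rpl22, Rpl38 and Rps2, but a common site lay 260.5 bp, 417.5 bp and 27 bp from a listed start of these genes that is not their outermost end. Rpl37 was the most covered of this list, with 631 fragments in bulge cells, 261 in hair germ cells, 384 in basal TACs and 467 in suprabasal TACs. Rpl19 was the least covered, at a mean percentile of 46.4 among all peaks. Among cell cycle genes, cyclin A2 (Ccna2), cyclin E2 (Ccne2) and DNA ligase 1 (Lig1) had no common site with its midpoint within 1 kb of an end. One lay 124.5 bp from a listed start of Lig1, and the ribonucleotide reductase gene Rrm2 had a broad one of 4035 bp. The nearest common site of Ccna2 was 1260 bp long with its midpoint 1094.5 bp from an end. That of Ccne2 was 2507 bp long with its midpoint at 1156 bp, and is long enough to reach the end.

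Genes that mark other cell types had few. Over all protein-coding genes the share was 51.8%. A common site was found at 1 of 16 germ line genes (6.25%), 1 of 15 liver genes (6.67%), 2 of 15 neuron genes and 2 of 14 immune genes. It was also found at 3 of 10 endothelial genes, 3 of 10 melanocyte genes and 4 of 13 dermal genes. The exact intervals of the endothelial and melanocyte lists (6.67% to 65.2% each) and of the dermal list (9.09% to 61.4%) include 51.8%. With peaks of −log10 q of at least 10 the endothelial share was 0 and the dermal share 15.4%, against 30.8% for the dermal genes in the full lists. The germ line case, Hormad1, lay at a finish in a site that also holds an end of Golph3l, and the immune marker Cd68 shared its site with Eif4a1, a translation factor. The endothelial receptors Kdr and Flt1 had weak sites: Kdr had 22 fragments in bulge cells, 7 in hair germ cells, 32 in basal TACs and 30 in suprabasal TACs. The melanocyte sites had higher coverage. Dct, a melanin synthesis enzyme, had 167, 93, 154 and 289 from the bulge to suprabasal TACs, Mitf had 332, 147, 222 and 202, and the site of Pmel, which also holds an end of Rab5b, had 507, 220, 423 and 327. The part of other cells in these values was not tested. Of 1110 olfactory receptor genes 2 had a common site (0.180%), and of 355 vomeronasal receptor genes 2 had (0.563%), against 55.6% of the other protein-coding genes.

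**Figure D3:**
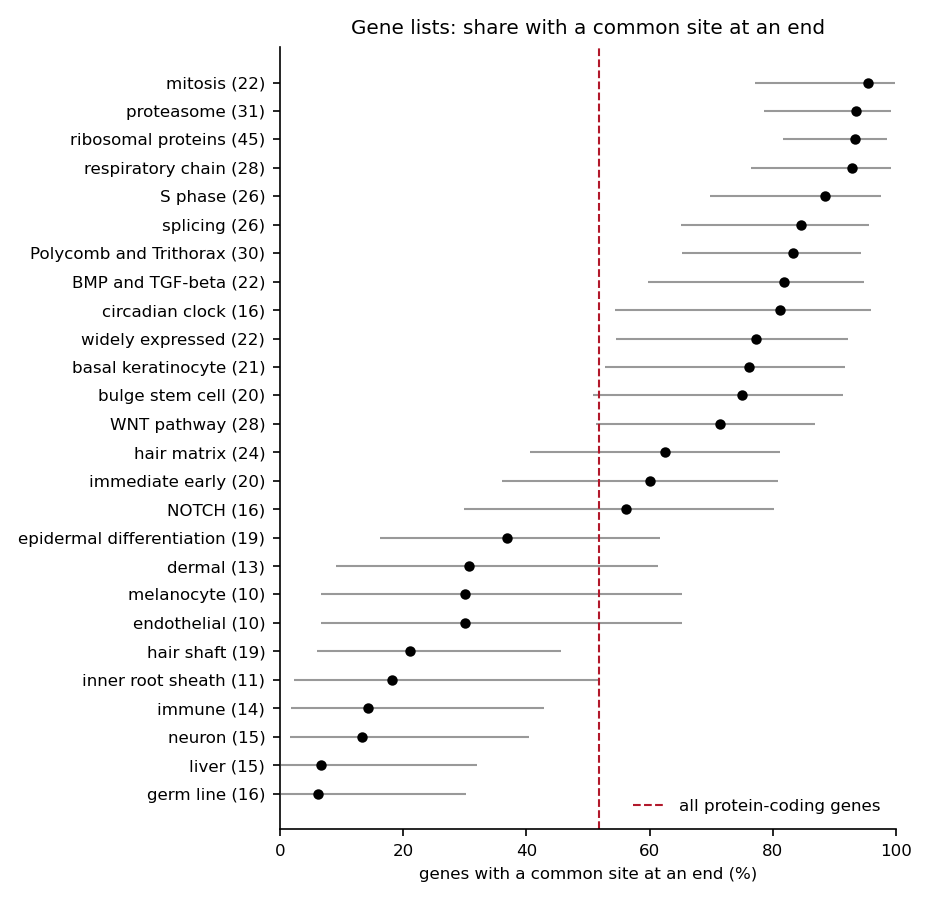
Share of genes (%) with a common site at an end in 26 gene lists, with exact Clopper-Pearson 95% intervals and the number of genes in parentheses. The dashed line marks all protein-coding genes (51.8%): lists of basic cell machinery lie far to its right, and hair shaft, inner root sheath and other cell type lists to its left.

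Genes of the hair lineage spread between these extremes. Bulge stem cell genes had a common site at 15 of 20 (interval 50.9% to 91.3%, exact Clopper-Pearson), basal keratinocyte genes at 16 of 21 (76.2%), hair matrix genes at 15 of 24 (62.5%), epidermal differentiation genes at 7 of 19 (36.8%), hair shaft genes at 4 of 19 (21.1%) and inner root sheath genes at 2 of 11 (18.2%, 2.3 to 51.8). The matrix share was 37.5% when each list had to cover 50% of the site, against 45.2% of all protein-coding genes in that setting. The bulge stem cell share was 45.0% within 500 bp of an end, against 42.1% of all genes there. The bulge stem cell genes without one were Nfatc1, a quiescence factor, Nfix, Krt15, Dkk3 and Postn, and all 5 had a site of 1 to 3 lists. Near Nfatc1 a common site of 3644 bp had its midpoint 1149.5 bp from an end and is long enough to reach that end. One lay 624 bp from a listed start of Nfix that is not its outermost end. Krt15, a bulge keratin, had end peaks in all lists but that of suprabasal TACs. Krt14, the keratin of basal keratinocytes, and Trp63, their master factor, had no site with its midpoint within 1 kb of an outermost end. At Krt14 a common site of 3264 bp had its midpoint 1519.5 bp from an end and is long enough to reach that end. The hair shaft genes with one were Lypd3, Dsc2, Selenbp1 and Krt86, and the inner root sheath genes Krt25 and, at its finish, Padi1. Of the other hair shaft genes 9 of 15 had a site of 1 to 3 lists. Among signalling genes, 18 of 22 BMP and TGF-β genes (81.8%, 59.7 to 94.8, exact) had one. So did 20 of 28 WNT pathway genes (71.4%, 51.3 to 86.8) and 9 of 16 NOTCH genes (56.2%, 29.9 to 80.2), whose intervals include the 51.8% of all protein-coding genes. Polycomb and Trithorax genes had one at 25 of 30 (83.3%), circadian clock genes at 13 of 16 (81.2%), widely expressed genes at 17 of 22 (77.3%) and immediate early genes at 12 of 20, where Jun, Junb and Ier2 had broad common sites instead.

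To set the populations side by side, the same 10264 sites were ranked by coverage within each list, from 0 (lowest) to 100 (highest), a measure that scaling a list for depth would not change. Each list was read at its own strongest summit, so at sites with widely spread summits the values do not come from 1 position. Hair germ and bulge ranks were the closest, with a Spearman correlation of 0.971 over the 10264 sites, which share their libraries and are not independent, and 86.5% of sites within 10 points. The suprabasal and basal TAC lists had 0.888 and 64.8%, and the suprabasal TAC and bulge lists had 0.817 and 53.2%, the lowest of the 6 pairs. A shift of 25 points or more upwards, suprabasal TAC minus bulge, was seen at 699 sites (6.81%), and a shift of this size downwards at 683 (6.65%). For basal TAC minus hair germ these shares were 5.73% and 4.94%, for suprabasal minus basal TAC 2.94% and 4.09%, for the mean of both TAC lists minus the mean of both telogen lists 4.47% and 4.13%, and for hair germ minus bulge 0.185% and 0.214%. Shifts of 25 points or more either way were most frequent at finish-only sites, at 28.2% (23.8 to 33.1, Wilson), against 13.1% at starts on 1 strand and 7.57% at starts on both strands (5.96 to 9.57). These 3 kinds of site also differed in coverage, with a median mean rank of 22.7, 50.4 and 71.9 in the same order. The part of coverage in the shifts was not tested.

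The sites with the largest rise, suprabasal TAC minus bulge, lay at genes of varied roles. At Bmp4, a ligand that the hair matrix uses (chr14:46389946-46392332), coverage was 35 in bulge cells (24.4 to 48.7, exact Poisson), 11 in hair germ cells (5.49 to 19.7), 153 in basal TACs (130 to 179) and 325 in suprabasal TACs (291 to 362). Its rank among the common sites was 94.9 in suprabasal TACs and 7.0 in bulge cells. The P-type ATPase gene Atp13a4 had the largest rise of all, 91.7 points, with coverage of 20, 14, 184 and 309 from the bulge to suprabasal TACs. The finishes of the ephrin receptor gene Epha2 (42, 38, 249 and 416) and of Tm4sf4 (22, 15, 234 and 238) were already high in basal TACs. Cldn4, of tight junctions, was high in suprabasal TACs alone, with 35, 17, 63 and 254. Slain1, the fatty acid desaturase gene Fads2, the connexin gene Gjb2, Muc15, Gm9222 and the finish of Padi1, a peptidylarginine deiminase, were also among the 12. Among these 12 the summits of the lists spanned up to 635 bp, at Fads2. By fold enrichment, coverage divided by the local background, the Padi1 shift had the opposite sign (-17.5 against 81.9 points by coverage).

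The 12 largest falls were led by the site at the adjoining ends of the carboxylesterase genes Ces2f and Ces2g (chr8:104961277-104962517). Its coverage was 342 in bulge cells (307 to 380, exact Poisson), 102 in hair germ cells (83.2 to 124), 82 in basal TACs (65.2 to 102) and 17 in suprabasal TACs (9.9 to 27.2), although the suprabasal library was the deepest. Some sites were already low in basal TACs: the start of Enah, an actin regulator, had 320, 99, 34 and 19 from the bulge to suprabasal TACs, the finish of the kinetochore gene Spc25 had 366, 93, 32 and 37, and Mansc1 had 414, 125, 35 and 47. Sfrp1, a secreted WNT antagonist of bulge cells, had 361 in bulge cells, 161 in hair germ cells, 84 in basal TACs and 64 in suprabasal TACs. Others were low only in suprabasal TACs. The carnitine synthesis gene Bbox1 had 291, 131, 195 and 52 from the bulge onwards, Ifit1bl1 had 460, 160, 180 and 53, Fam180a had 318, 157, 185 and 52, and Smarcd3, a subunit of the BAF remodelling complex, had 281, 115, 147 and 38. Sema3e, Mfsd9 and Eml4 completed the 12, and the Sema3e shift was 9.58 points by fold enrichment against -72.3 by coverage. Summits of the lists spanned up to 742 bp among these 12, at Mansc1.

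**Figure D4:**
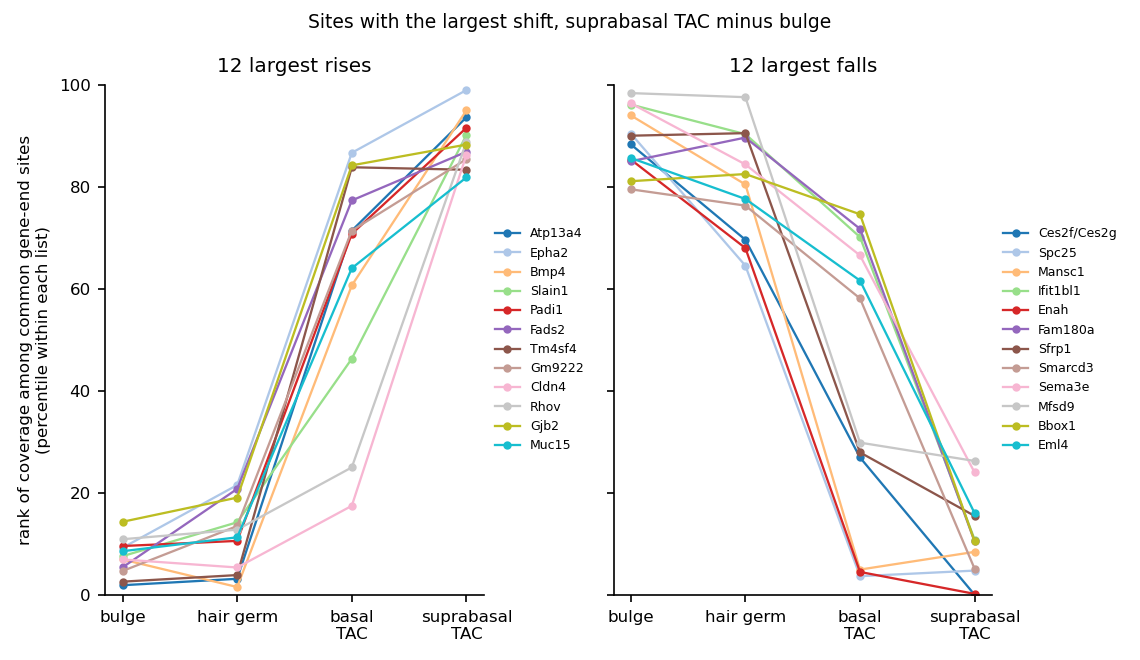
Rank of coverage among the 10264 common gene-end sites (percentile within each list) in the 4 populations, for the 12 sites with the largest rise (left) and the 12 with the largest fall (right), suprabasal TAC minus bulge. The step between bulge and hair germ is smaller than the larger of the next steps at all 24 sites.

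Other contrasts picked out further sites, some high and some low mainly in 1 population. Cyb5a, the electron carrier cytochrome b5, had 18 fragments in bulge cells, 16 in hair germ cells, 312 in basal TACs and 71 in suprabasal TACs, and the finish of Mroh2a had 73, 30, 316 and 121. The Cyb5a shift, suprabasal minus basal TAC, was -75.8 points by coverage and 4.92 by fold enrichment. From basal to suprabasal TACs the largest rise was at Ephx3, an epoxide hydrolase gene of the skin, with 37, 30, 40 and 223. The summits of the lists spanned 1418 bp at Ephx3, so its values do not come from 1 position. Next were Cldn4, the HES family gene Hes2 with 16, 14, 36 and 198, and Card14, a keratinocyte NF-κB activator, with 45, 26, 42 and 196. Their summits spanned 93 bp, 423 bp and 322 bp in this order. The matrix protein gene Tnc was among the largest falls of that contrast, with 228, 79, 276 and 63, as was Baalc, with 228, 87, 185 and 25. Within telogen, Foxi3, a forkhead factor of hair placodes, had 86 fragments in hair germ cells and 79 in bulge cells, although the hair germ library was the shallower, and its rank was 59.9 in hair germ cells and 21.6 in bulge cells. The β-catenin gene Ctnnb1 was among the largest falls there, with 34 fragments and rank 18.3 in hair germ cells, against 168 fragments and rank 52.1 in bulge cells. The summits of the lists spanned 972 bp at Ctnnb1, in a site of 1465 bp, and 245 bp at Foxi3.

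Coverage at bulge stem cell genes ranked lower in suprabasal TACs than in the bulge, and coverage at hair matrix genes ranked higher. Of 15 common sites at bulge stem cell genes, 9 fell by 25 points or more and 0 rose by as much, beside 6.65% and 6.81% of all common gene-end sites, and the median shift was -29.7 points, against 0.03 over all. Of 15 sites at hair matrix genes, 7 rose by 25 points or more and 0 fell by as much, with a median of 19.8 points. These lists were chosen with results of these data known, so their directions are not independent evidence. All 20 genes of the WNT pathway list with a site stayed within 25 points by coverage, from -19.5 to 22.0. By fold enrichment 3 of the 20 rose by 25 points or more: Lgr4, Tle1 and Tle4. The list does not hold every WNT gene, and Sfrp1 and Tcf7l2 are outside it. Sfrp1 had a shift of -74.5 points by coverage and -0.9 by fold enrichment.

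Cd34, the surface protein on which bulge cells were sorted, had a coverage of 173 in bulge cells, 39 in hair germ cells, 73 in basal TACs and 27 in suprabasal TACs at its start. Foxc1 had 273, 104, 83 and 65 in the same order, the WNT effector gene Tcf7l2 176, 73, 68 and 59, Sox9 143, 75, 60 and 60, and the hemidesmosomal collagen gene Col17a1 147, 67, 58 and 52. Lgr5, the stem cell gene that carries the reporter, had 159, 86, 157 and 123, a shift of only -6.1 points. Among matrix genes, Ptch1, the hedgehog receptor, had 64 in bulge cells, 39 in hair germ cells, 148 in basal TACs and 193 in suprabasal TACs, and Msx1 had 154, 69, 202 and 269. Foxn1, the factor mutated in nude mice, had 30, 17, 47 and 125, with most of its rise between basal and suprabasal TACs, and Dlx3 had 53, 26, 83 and 130. Msx2 was strong throughout, with 367, 172, 249 and 320. Both NOTCH target genes Hes1 (174, 74, 245 and 261) and Hes5 (49, 33, 82 and 131) rose by 25 points or more by coverage, and among BMP and TGF-β genes Smad6, an inhibitor, rose by 41.3 points while Tgfbr2, a TGF-β receptor, fell by 52.2 points. Grem1, a BMP antagonist, fell by 44.0 points, and Acvr1, a BMP receptor, fell by 37.2 points. Krt5, a basal keratin, had 296, 108, 267 and 110 and a shift of -45.2 points.

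Ranking by fold enrichment, which divides coverage by the local background the caller expects over 10 kb, gave other values for these lists. By fold enrichment 0 of the 15 bulge stem cell sites fell by 25 points or more and 2 rose, beside 10.7% and 9.63% of all common gene-end sites, and the median shift was 8.6 points. Of the 15 hair matrix sites 2 rose and 1 fell by as much, with a median of -0.3 points. The local background implied by the scores (coverage divided by fold) itself shifted in rank, by a median of -29.6 points at bulge stem cell sites and 19.4 points at hair matrix sites, against -0.05 over all. This background is computed from the same coverage, and without a control library its window holds the site's own fragments, so it is no separate measure of the surroundings. Bmp4 rose under both rankings (88.0 points by coverage, 39.1 by fold), and Cd34 fell under both (-51.9 and -24.4), whereas Sfrp1 fell by coverage (-74.5) and had -0.9 by fold. Msx1 had 41.1 points by coverage and -11.7 by fold, and the melanocyte gene Dct 39.6 and -16.9. The NOTCH, BMP and TGF-β genes and Krt5 named above did not reach 25 points by fold: Hes1 had 4.4 and Hes5 12.3 points, Smad6 1.7, Tgfbr2 -14.9, Grem1 0.2, Acvr1 -20.5 and Krt5 4.0.

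**Figure D5:**
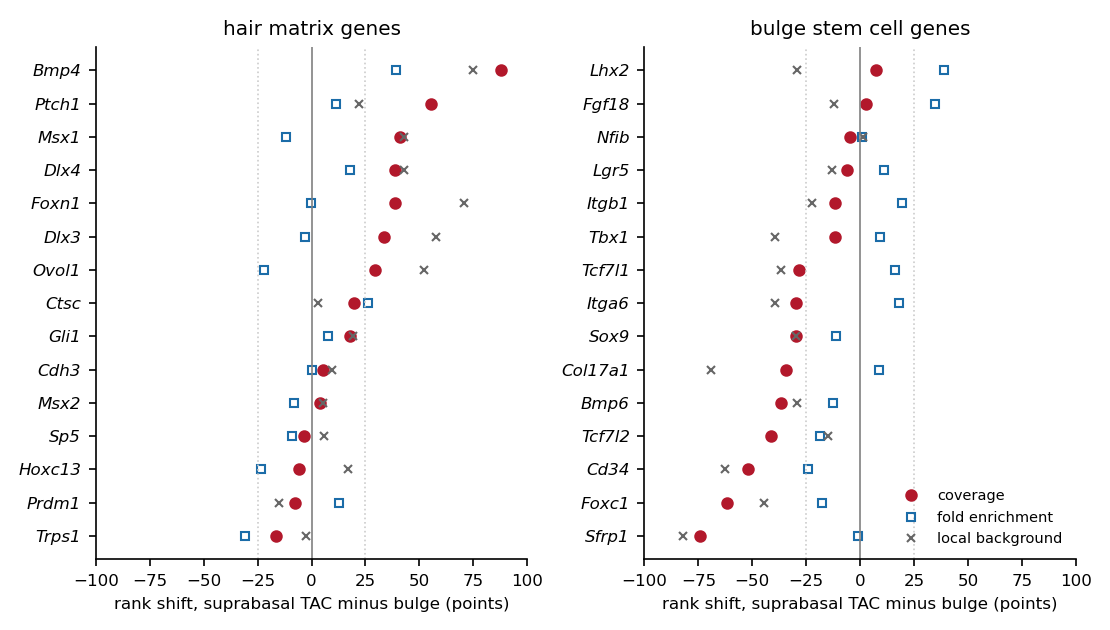
Shift of rank among common gene-end sites (points, suprabasal TAC minus bulge) at hair matrix genes (left) and bulge stem cell genes (right), by coverage (filled circles), fold enrichment (open squares) and local background (crosses). Dotted lines mark 25 points either way: 7 matrix genes lie above by coverage and 9 stem cell genes below, and by fold enrichment most points lie between the lines.

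Sites lay close to both sides of each threshold. Just inside 1 kb were Tmem63a at 999 bp and Cd44 at 997 bp, with coverage of 169, 58, 107 and 130 at Cd44 from the bulge to suprabasal TACs, and just outside was Trp53 at 1000.5 bp, with 193, 97, 163 and 150. Just under the length limit were Rev1 with 2998 bp and Daglb with 2995 bp, and just over it Ptbp1 and Sh3d19 with 3001 bp each, with 322, 153, 304 and 266 at Ptbp1. Summits of different populations lay farthest apart at Nrp1, a neuropilin gene, by 2224 bp, then at Klk10, Evl, Tcf7l1 and Cys1. The share of genes with a common site was lowest on the X chromosome, at 34.4%, against 41.9% to 60.6% on the other chromosomes.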

How the data were processed

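ATAC-seq of 8 samples, 2 per population, was deposited as 4 peak lists, 1 per population, called on both samples pooled. The caller was MACS 2.1.1.20160309, per the file headers, with no control library, a q-value cutoff of 0.05 and a background window of 10000 bp. Bowtie2 2.2.9, Picard and mm10 are named in the submitters' processing notes. Whether read positions were moved to the transposase cut is not stated there. Per the file headers, each deposited peak has a summit signal (fragment coverage, not scaled for depth), a fold enrichment over the local background, and −log10 p and −log10 q values. Both −log10 columns lack a readable name and were assigned by the column order that MACS writes. Only an alternative used the q-values.

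Peaks overlapping by at least 1 bp were merged with Python 3.11.15 and pandas 2.3.3. Gene ends came from RefSeq spans (GRCm38.p6), and strand, starts and 300-base promoters from a RefSeq promoter table, which covered 17273 of 21627 genes. Where a site held several peaks of a list, the most covered was used. Ranks were percentiles among the 10264 sites within a list, and shifts of 25 points or more were counted. Each gene of a list was given its site of highest mean percentile. Motifs were searched as exact letters on both strands. The merging and ranking steps were tested on simulated data. Named sites are the 10 highest and 10 lowest in mean percentile, the 12 or 6 largest shifts each way in each contrast, the 5 at each threshold, with most gene ends or with the widest summit spread, and from each gene list the genes without a site if 5 or fewer, otherwise those with one if 5 or fewer, otherwise the 3 highest and 3 lowest. List genes named beyond this, the receptor families, the X chromosome and the printed promoters were chosen after their values were seen. The sites and the 26 gene lists (539 of 541 entries used) were chosen with earlier results of these data known. Intervals cover counting error only. Alternatives were another q-value minimum, equal list lengths, more overlap, other distances, no length limit and fold enrichment in place of coverage. Gene list shares and named shifts were not compared with sites placed by their edges.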

Additional observations from a re-analysis of the deposited data

Results flagged for a closer look

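The Y chromosome was left out of all comparisons, yet its peaks at protein-coding gene ends numbered 5 for bulge cells, 4 for hair germ cells and 4 for basal TACs, above the 3 that a count of 0 would allow. Suprabasal TACs had 2 such peaks. The whole Y chromosome held 9 peaks of bulge cells, 7 of hair germ cells, 12 of basal TACs and 13 of suprabasal TACs. The labels give mixed sexes for every population.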

How the results depend on the processing

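No paired analysis was possible because each population has 1 pooled list, and for the same reason leaving out a replicate was not run. The number of common gene-end sites stayed between 8233 and 11739 under the alternatives, against 10264. The share of protein-coding genes with one, 51.8%, was 47.4% with peaks of −log10 q at least 10, 49.6% with equal numbers of peaks per list, 45.2% when each list had to cover 50% of the site, 42.1% within 500 bp, 56.7% within 2 kb and 52.8% with no length limit. In the same order of settings the median of the mean percentile, 81.7, was 83.9, 82.9, 84.0, 82.9 and 80.3 (not moved without the length limit), and 77.7 by fold enrichment. The share of sites with a gene start, 95.6%, was 96.8%, 96.0%, 96.8%, 97.2% and 91.9% under the first 5 settings. The median summit spread, 100 bp, was 93 bp with the q minimum, 96 bp with equal numbers and 95 bp within 500 bp. The median CpG ratio, 0.787, was 0.794 with the q minimum, 0.797 with 50% cover, 0.793 within 500 bp and 0.779 within 2 kb. Sites shifted by 25 points or more, suprabasal TAC minus bulge, numbered 1382 by coverage and 2087 by fold enrichment. By fold enrichment only 3 of 72 named shifts stayed within 10 points of their value by coverage, 63 kept their sign but moved by more, and 6 reversed: Padi1 to -17.5 (suprabasal TAC minus bulge) and -19.2 (TAC minus telogen), Sema3e to 9.58, Eef1akmt2 to -2.84 and Chst13 to 8.45 (hair germ minus bulge), and Cyb5a to 4.92 (suprabasal minus basal TAC). The cause was not tested. The other settings rank the same coverage again, and 27, 9, 36 and 29 of the 72 sites were no longer common gene-end sites under the first 4 of them. Gene list shares moved by over 1.5 times in some settings. With the q minimum, inner root sheath genes came to 9.09%, neuron genes to 6.67%, dermal genes to 15.4% and endothelial genes to 0. With 50% cover, matrix genes came to 37.5%, hair shaft genes to 10.5%, inner root sheath genes to 9.09%, endothelial genes to 10.0% and neuron genes to 6.67%. Within 500 bp, bulge stem cell genes came to 45.0%, basal keratinocyte genes to 47.6%, BMP and TGF-β genes to 45.5%, inner root sheath genes to 9.09%, endothelial genes to 10.0%, neuron genes to 6.67% and germ line genes to 0. Within 2 kb, neuron genes came to 3 of 15, liver genes to 13.3% and germ line genes to 12.5%. Hair germ coverage, from the shallowest library, limits its low ranks: at Bmp4 11 fragments allow 5.49 to 19.7. Strand was unknown for genes outside the promoter table, and gene spans give only the outermost ends, so starts inside a gene were missed.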

Other observations

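Promoters at the extremes of the TAC minus telogen shift differed little in most motifs. Of the 500 promoters with the highest shift, 7.0% had a CRE core and 6.4% an NRF1 motif, against 13.6% and 2.4% of the 500 with the lowest shift. For suprabasal TAC minus bulge the CRE core was at 9.6% in the highest and 10.4% in the lowest 500, and NRF1 at 6.0% and 3.2%, so the CRE difference was not seen in that contrast. In the TAC minus telogen sets AP-1 motifs were at 6.2% and 7.0%, and TCF/LEF motifs (CTTTGAA) at 3.2% and 2.6%. The CpG ratio was 0.74 in the highest and 0.76 in the lowest set, both below the 0.79 of all promoters with a common site.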
